A study of Homo sapiens with 8 samples.

Results

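The SR and hnRNP splicing factors were followed in HepG2 cells exposed to benzo[a]pyrene (BaP). HepG2 is a human hepatocellular carcinoma line, and BaP, a combustion product, is a ligand of the aryl hydrocarbon receptor (AHR) whose metabolites bind DNA. The genes were taken from a list of 35 symbols set by family membership, and earlier results of these data were known when it was chosen. An identifier was found for 34 of them among 49733 gene identifiers in the files, and none was found for SRSF8. All 34 passed the filter on low counts, which left 14746 genes tested, and 289 transcripts of the 34 genes were quantified. The groups were BaP at 12 h, DMSO at 12 h, BaP at 24 h and DMSO at 24 h, each with 2 libraries that the labels assign to independent experiments. BaP was given at 2 µM, and DMSO, at 0.5%, was the vehicle. Exposure began when the cultures were 80% confluent, and poly-A RNA of whole cultures was sequenced. All groups share the 1 cell line.

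SR proteins carry RNA recognition motifs and a domain rich in arginine and serine, and they bind exonic enhancers and recruit the spliceosome to nearby splice sites. The hnRNP proteins coat nascent transcripts, and many of them silence exons, so that the balance between both families helps to set which exons are kept. Both families are known for ultraconserved "poison" exons and retained introns, through which the proteins limit their own mRNA by sending it to nonsense-mediated decay (NMD), the pathway that degrades transcripts with an early stop codon.

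Total estimated counts per library ranged from 2592272 to 16533490, and replicate 1 of BaP at 24 h was the shallowest. A member's count was never below 43 (TRA2A and HNRNPH2 in that library), while HNRNPA1 reached 12645 counts in replicate 2 of the same group. The exposure was visible in both checks. CYP1A1, an AHR target that oxidises BaP, had 966 and 1059.8 CPM (a gene's count as a share of its library, corrected for composition) with BaP at 12 h against 6.57 and 3.49 CPM with DMSO, and averaged 341 ± 49.3 CPM with BaP at 24 h against 1.56 ± 0.0800 CPM with DMSO (SD, n = 2 each). CDKN1A, a p53 target that halts the cell cycle, had 421 and 369 CPM with BaP at 12 h against 113 and 81.7 CPM with DMSO, and 409.7 and 451 CPM with BaP at 24 h against 119.5 and 116 CPM with DMSO. All 9 hepatocyte markers had counts in every library. Their summed level was 19205 to 20517 CPM with BaP at 12 h against 25101 to 27385 CPM with DMSO, and 21829 to 24315 CPM with BaP at 24 h against 29569 to 33815 CPM with DMSO. For BaP against DMSO, DESeq2 called APOB lower at both times, TF lower at 24 h and none of the 9 higher. Over all 14746 genes it called 508 lower at 12 h and 235 at 24 h. Of 11 markers of other cell types 10 were matched, and their summed level was 419 to 501 CPM with BaP at 12 h against 483 to 695 CPM with DMSO, and 645 to 662 CPM with BaP at 24 h against 513 to 592 CPM with DMSO. None was at 0 in all libraries, but the leukocyte marker PTPRC, the endothelial marker VWF and the fibroblast marker COL1A2 stayed at or below 0.375 CPM, and most of the sum was KRT19, an epithelial keratin. By edgeR the macrophage marker CD14 was called higher at both times (log2 1.04 ± 0.31 and 1.54 ± 0.32), CD68 was called higher at 24 h (0.56 ± 0.13), and the mesenchymal marker PDGFRB was called lower at 12 h (-0.88 ± 0.16). DESeq2 called CD68 and PDGFRB at these times and not CD14 (adjusted p = 0.29 at 12 h and 0.052 at 24 h). The part of these markers in the results below was not tested, and in bulk libraries fewer cells of a type and less RNA per cell cannot be told apart.

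The levels of the members spanned a wide range. On the TPM scale (the deposited molecule fraction rescaled, which takes transcript length into account, so that genes can be compared), the median over 8 libraries was highest for HNRNPA1, a repressor of exons, with 448 TPM (range 344 to 499). It was followed by HNRNPC, which binds uridine tracts, with 292 TPM (range 257 to 366), and by HNRNPA3, a close relative of HNRNPA1, with 241 TPM (range 164 to 385). HNRNPA1 was the highest member in 8 of 8 libraries, whereas the ranges of HNRNPC and HNRNPA3 overlapped. Then came HNRNPK (175 TPM), PTBP1 (172 TPM) and SRSF2 (161 TPM), whose ranges over libraries overlapped. The lowest levels were those of TRA2A (17.2 TPM), HNRNPUL2 (16.7 TPM) and HNRNPH2 (9.02 TPM). Among the SR proteins SRSF2 was highest, followed by SRSF7 (113 TPM) and SRSF3 (103 TPM), and SRSF4 was lowest (28.4 TPM). The 34 genes together held 3168 and 3475 TPM with BaP at 12 h against 3694 and 3766 TPM with DMSO, and 3632 and 3009 TPM with BaP at 24 h against 3695 and 3426 TPM with DMSO. Replicate 2 of BaP at 24 h was thus the lowest library on this scale. Its summed level in CPM was 5387, above the 5274 CPM of replicate 1. Comparisons between groups were made on counts, not on TPM.

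**Figure D1:**
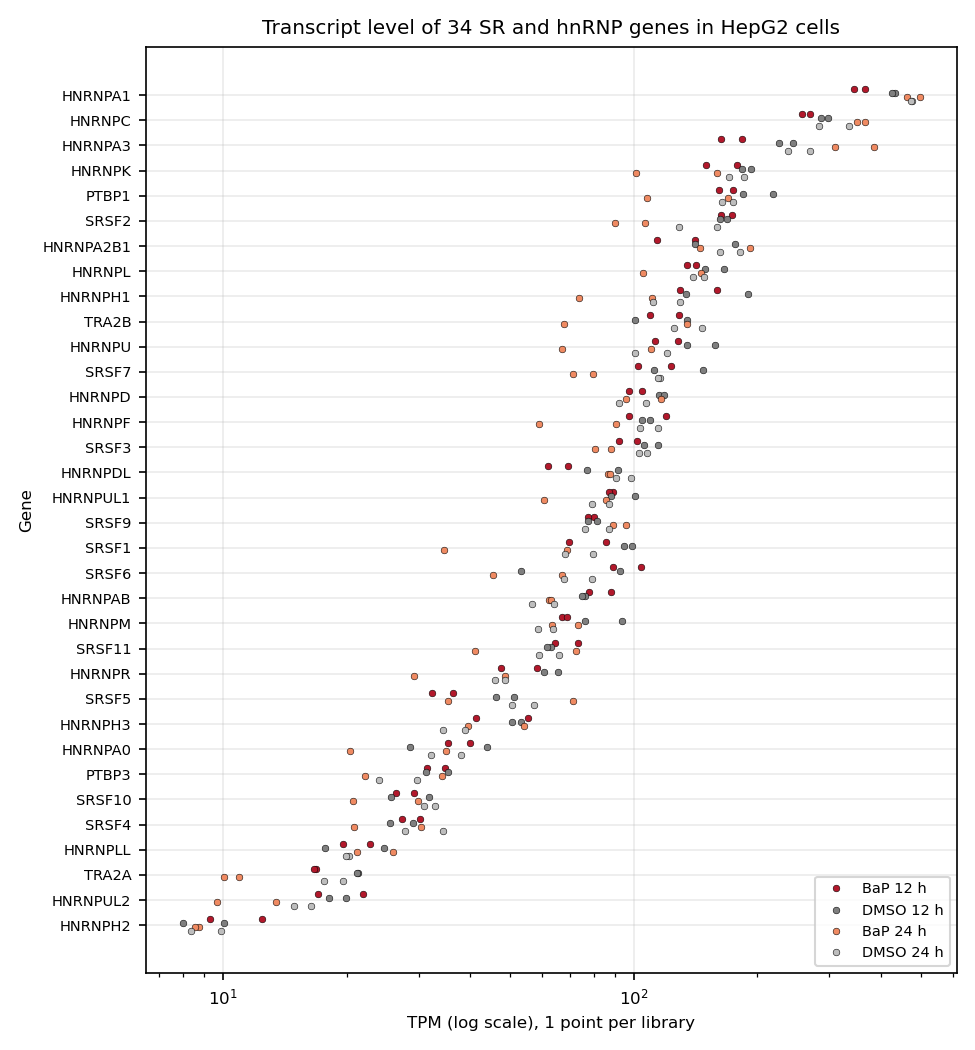
Transcript level of each of the 34 genes in TPM on a log axis, 1 point per library, coloured by group, with genes ordered by their median over 8 libraries. HNRNPA1 stood at the top with a median of 448 TPM and HNRNPH2 at the bottom with 9.02 TPM.

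At 12 h the comparison asked how BaP changed the mRNA of splicing factors against vehicle. HNRNPDL and HNRNPA3 fell, no member rose, and most other members stood slightly lower with BaP. HNRNPDL (ENSG00000152795), a relative of the AU-rich element binding protein HNRNPD, had 92.0 and 96.9 CPM with BaP and 122 and 135 CPM with DMSO. Both BaP libraries were below both DMSO libraries, and the means were 94.4 ± 3.51 and 128 ± 9.51 CPM (SD, n = 2 each). The log2 fold change was -0.44 ± 0.12 (SE; adjusted p = 0.029, edgeR). HNRNPA3 (ENSG00000170144) had 172 and 168 CPM with BaP and 220.0 and 255 CPM with DMSO. Its groups did not overlap either, and its log2 fold change was -0.48 ± 0.14 (adjusted p = 0.036). The 2 lower members among 34 stand beside 4.84% of all tested genes called lower, and the 0 higher members beside 3.41% called higher. DESeq2 also called these 2 and no member higher. Both calls were lost without either 12 h library of either group and without either DMSO library of 24 h. Across those fits the adjusted p was 0.051 to 0.28 for HNRNPDL and 0.053 to 0.24 for HNRNPA3, with the direction kept.

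The promoters of the members called lower at 12 h are shown because AHR, with its partner ARNT, binds sites with the core GCGTG. RefSeq start windows (250 bases before to 50 after a start, GRCh38.p14) were listed for 31 of the 34 members, not for HNRNPA1, SRSF2 or TRA2A. GCGTG, read on both strands, occurred in 30 of 45 member windows (66.7%) and in 36.5% of all 35116 windows, which differ in base composition (median GC content 66.0% in member windows and 58.7% in all). At least 1 window held GCGTG in 25 of the 31 members (80.6%) and in 40.6% of all 27305 genes. The motif thus did not set HNRNPA3 and HNRNPDL apart from most other members. AHR binding was not measured here. Capitals mark GCGTG or its reverse complement CACGC in the window of HNRNPA3 (chr2:177212544-177212843, plus strand) and in 1 window of HNRNPDL, both of whose windows hold the motif (chr4:82430176-82430475, minus strand).
HNRNPA3: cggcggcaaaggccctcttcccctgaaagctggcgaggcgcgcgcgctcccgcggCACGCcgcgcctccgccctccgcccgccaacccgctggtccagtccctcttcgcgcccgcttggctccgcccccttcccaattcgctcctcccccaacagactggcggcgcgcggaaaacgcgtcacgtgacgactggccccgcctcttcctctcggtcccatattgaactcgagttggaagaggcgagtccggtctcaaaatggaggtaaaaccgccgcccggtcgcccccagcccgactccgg
HNRNPDL: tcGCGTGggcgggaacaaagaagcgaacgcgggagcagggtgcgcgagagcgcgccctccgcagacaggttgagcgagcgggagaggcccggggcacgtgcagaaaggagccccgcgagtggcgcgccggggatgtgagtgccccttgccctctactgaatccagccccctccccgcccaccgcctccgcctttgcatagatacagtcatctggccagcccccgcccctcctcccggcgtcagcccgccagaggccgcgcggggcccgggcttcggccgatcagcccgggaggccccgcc
A match describes the letters only.

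The direction of the other members at 12 h was mostly downward, at sizes that single tests did not separate from the spread. Of the 34 log2 fold changes 29 were below 0, and their median was -0.15 (range -0.54 to 0.23), beside 47.9% below 0 and a median of 0.015 over all genes tested. At an unadjusted p under 0.05 there were 11 members, all of them lower, beside 19.6% of all genes in either direction. Both BaP libraries lay below both DMSO libraries for 18 members, which is 52.9%, beside 23.9% of all genes. They lay above for 3 members, HNRNPAB, SRSF4 and SRSF11, which is 8.82%, beside 25.4% of all genes. The summed level of the 34 genes was 4827 and 5179 CPM with BaP against 5657 and 5956 CPM with DMSO. These are counts over genes chosen as a family, with no test of the family.

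**Figure D2:**
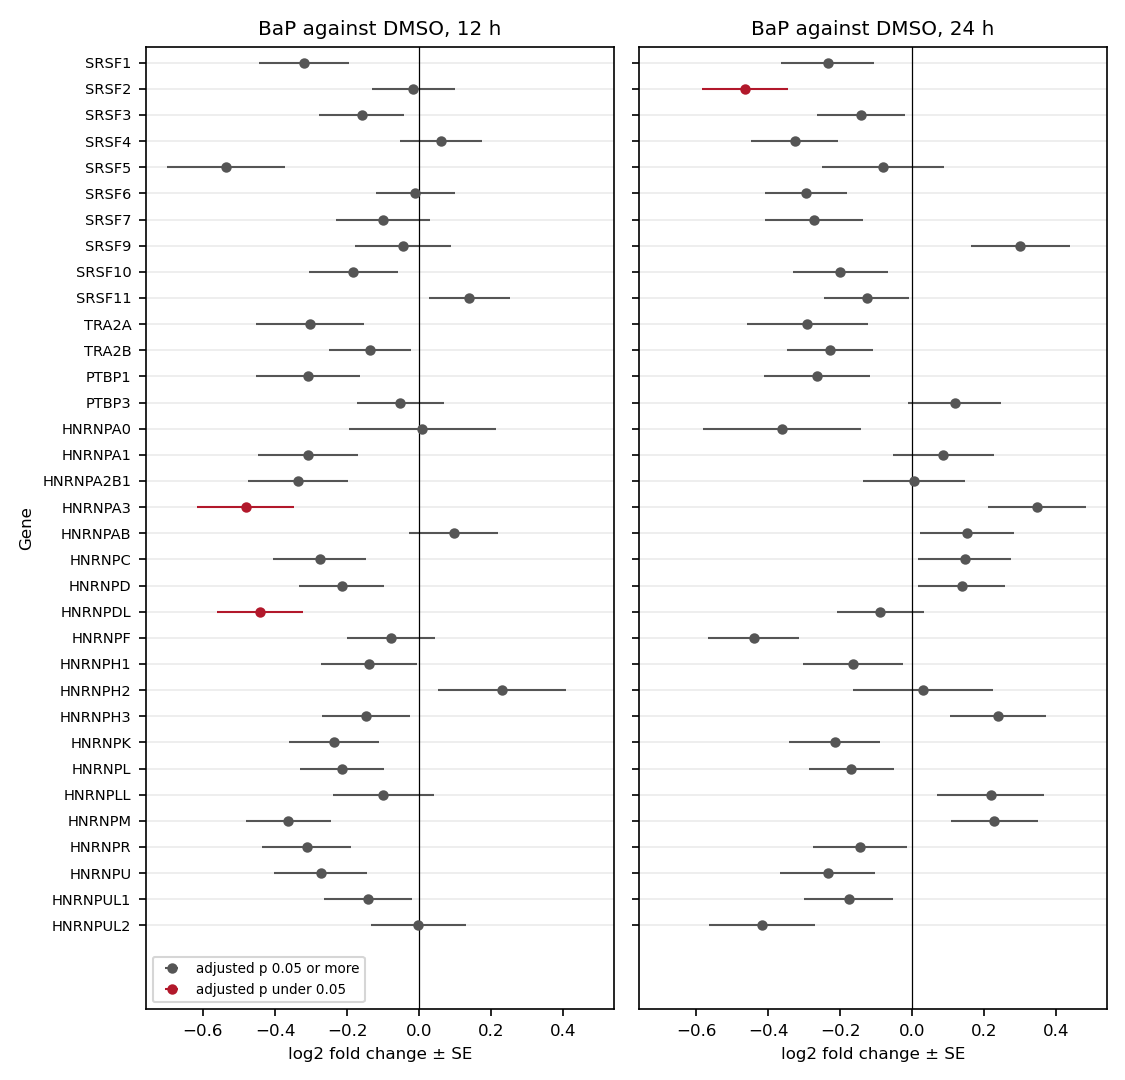
log2 fold change (point) and SE (line) of BaP against DMSO for each of the 34 genes at 12 h (left) and 24 h (right), n = 2 libraries per group, with calls at an adjusted p under 0.05 in red. At 12 h 29 of 34 points lie left of 0 and HNRNPDL and HNRNPA3 are red, and at 24 h 22 lie left of 0 and SRSF2 is red.

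Among the SR proteins at 12 h, 8 of 10 log2 fold changes were below 0 with a median of -0.07, and none passed. SRSF5, an enhancer-binding SR protein, came closest with 40.3 and 44.3 CPM with BaP against 57.3 and 65.7 CPM with DMSO (log2 -0.54 ± 0.16, adjusted p = 0.061). Its groups did not overlap. It was called without replicate 1 or replicate 2 of BaP at 24 h (adjusted p = 0.0015 and 0.0020), without a filter (0.0014) and with the 12 h libraries alone (0.0012). SRSF1, the prototype of the family and a regulator of 5′ splice site choice, had 116 and 136 CPM with BaP against 146 and 168 CPM with DMSO (log2 -0.32 ± 0.12, adjusted p = 0.15), and was called with the 12 h libraries alone (0.046). SRSF3, which also serves as an adaptor for mRNA export, had 116 and 117 CPM with BaP against 125 and 134 CPM with DMSO (log2 -0.16 ± 0.12, adjusted p = 0.53). In both genes the BaP libraries were below the DMSO libraries. SRSF2 had 239 and 255 CPM with BaP against 249.98 and 250.1 CPM with DMSO. SRSF6, another enhancer-binding SR protein, had 133 and 133 CPM with BaP against 127 and 141 CPM with DMSO. In these 2 the groups overlapped.

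The remaining SR and TRA2 genes given by library showed no called difference at 12 h. SRSF4 had 49.5 and 50.03 CPM with BaP against 48.0 and 47.5 CPM with DMSO (log2 0.06 ± 0.11, adjusted p = 0.85). SRSF11, an SR-related protein, had 93.1 and 100.3 CPM with BaP against 85.2 and 90.5 CPM with DMSO (log2 0.14 ± 0.11, adjusted p = 0.57). In both the BaP libraries were above the DMSO libraries. The TRA2 proteins are SR-like activators of exon inclusion. TRA2A had 18.0 and 16.6 CPM with BaP against 19.6 and 23.1 CPM with DMSO, with no overlap of the groups. TRA2B had 87.4 and 94.8 CPM with BaP against 92.5 and 108 CPM with DMSO, with overlap.

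Among the hnRNP genes at 12 h, 17 of 20 log2 fold changes were below 0, with a median of -0.21. HNRNPM, which binds GU-rich sites, had 141 and 143 CPM with BaP against 199 and 166 CPM with DMSO (log2 -0.36 ± 0.12, adjusted p = 0.070). It was called without either BaP library of 24 h (adjusted p = 0.023 for each), without replicate 2 of DMSO at 12 h (0.035) and with the 12 h libraries alone (0.018), and it was at -0.23 (0.42) without replicate 1 of DMSO at 12 h. The abundant repressors stood lower as well without passing. HNRNPA1 had 501 and 524 CPM with BaP against 629 and 641 CPM with DMSO (log2 -0.31 ± 0.14, adjusted p = 0.22). HNRNPA2B1, a close relative of HNRNPA1, had 172 and 206 CPM with BaP against 208 and 269.5 CPM with DMSO (log2 -0.34 ± 0.14, adjusted p = 0.18). HNRNPC had 259 and 269 CPM with BaP against 307 and 332 CPM with DMSO (log2 -0.28 ± 0.13, adjusted p = 0.25). In all 3 genes both BaP libraries were below both DMSO libraries.

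Other hnRNP genes and PTBP1 followed the same direction at 12 h without a call. HNRNPR had 91.6 and 107 CPM with BaP against 115 and 132 CPM with DMSO (log2 -0.31 ± 0.12, adjusted p = 0.15). HNRNPU, a nuclear scaffold protein, had 260.0 and 279.8 CPM with BaP against 300.2 and 352 CPM with DMSO (log2 -0.27 ± 0.13, adjusted p = 0.25). HNRNPK, a poly-C binding protein that also acts with p53, had 229.9 and 262 CPM with BaP against 274 and 306 CPM with DMSO (log2 -0.24 ± 0.12, adjusted p = 0.32). In these 3 genes the groups did not overlap. PTBP1, which represses exons through pyrimidine tracts, had 444 and 470.3 CPM with BaP against 606 and 526 CPM with DMSO (log2 -0.31 ± 0.14, adjusted p = 0.25). HNRNPL, which binds CA repeats, had 212 and 219.6 CPM with BaP against 260.2 and 240.3 CPM with DMSO. HNRNPD, which binds AU-rich elements, had 116 and 123 CPM with BaP against 131 and 147 CPM with DMSO. In these 3 the groups did not overlap either. HNRNPF had 147 and 176 CPM with BaP against 168 and 174 CPM with DMSO. HNRNPLL had 28.9 and 27.3 CPM with BaP against 26.6 and 33.6 CPM with DMSO. HNRNPUL2 had 42.9 and 54.0 CPM with BaP against 45.7 and 51.8 CPM with DMSO. In these last 3 genes the groups overlapped.

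**Figure D3:**
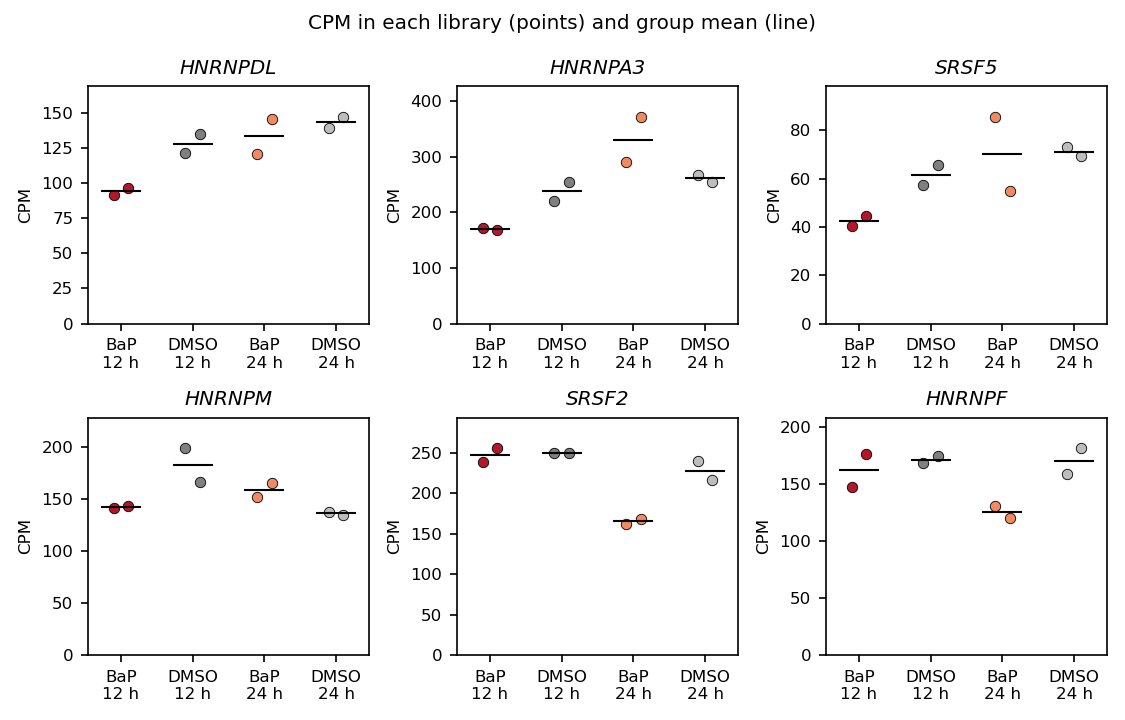
CPM in each library (points) and group mean (line) for 6 members, with groups along the horizontal axis in pairs of BaP and DMSO. HNRNPDL, HNRNPA3, SRSF5 and HNRNPM were lower with BaP at 12 h in both libraries, SRSF2 and HNRNPF were lower with BaP at 24 h in both libraries, and replicates of BaP at 24 h were far apart in SRSF5 (85.5 and 55.1 CPM).

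At 24 h SRSF2 fell and no other member passed. SRSF2 (ENSG00000161547), an SR protein that binds exonic enhancers and takes part in spliceosome assembly, had 162 and 168 CPM with BaP and 239.9 and 216 CPM with DMSO. Both BaP libraries were below both DMSO libraries, with means of 165 ± 4.32 and 228 ± 16.9 CPM (SD, n = 2 each), and the log2 fold change was -0.46 ± 0.12 (adjusted p = 0.030). The 1 lower member among 34 stands beside 2.2% of all genes called lower, and 0 higher members, by edgeR and by DESeq2, beside 3.11% called higher. The call was lost without replicate 2 of BaP at 24 h (adjusted p = 0.063), without either DMSO library of 24 h (0.32 and 0.12), without either BaP library of 12 h (0.074 for each) and in a fit to the 24 h libraries alone (0.095). HNRNPF, which binds runs of guanine, came next with 130.2 and 120.3 CPM with BaP and 158 and 181 CPM with DMSO (log2 -0.44 ± 0.13, adjusted p = 0.054). The Wald test of DESeq2 called it (adjusted p = 0.046), and so did edgeR without a filter and without replicate 1 of BaP at 24 h (0.017 for each).

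At 24 h the SR proteins were mostly below 0, and the hnRNP genes were on both sides of it. Of the SR proteins 9 of 10 were below 0 with a median of -0.22, and of the hnRNP genes 10 of 20 were below 0 with a median of -0.04. Over all 34 members 22 were below 0, with a median of -0.16 (range -0.46 to 0.35), beside 49.3% below 0 and a median of 0.006 over all genes. At an unadjusted p under 0.05 there were 7 members, 5 lower and 2 higher, which is 20.6% of them, beside 20% of all genes. Both BaP libraries lay below both DMSO libraries for 17 of the 34 members, beside 24% of all genes, and above for 5 (14.7%), beside 23.2% of all genes. The members' summed level was 5274 and 5387 CPM with BaP against 5621 and 5618 CPM with DMSO. The difference between the families was not tested.

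HNRNPUL2, SRSF4 and SRSF6 were next in order of p at 24 h, all lower without passing. HNRNPUL2, a relative of the scaffold protein HNRNPU, had 33.0 and 30.4 CPM with BaP against 42.2 and 41.3 CPM with DMSO (log2 -0.42 ± 0.15, adjusted p = 0.12). SRSF4 had 45.8 and 48.3 CPM with BaP against 61.7 and 56.6 CPM with DMSO (log2 -0.33 ± 0.12, adjusted p = 0.14). SRSF6 had 109.9 and 104 CPM with BaP against 134 and 127 CPM with DMSO (log2 -0.30 ± 0.11, adjusted p = 0.15). In all 3 the groups did not overlap. SRSF1 had 122 and 105 CPM with BaP against 138 and 128 CPM with DMSO. SRSF3 had 107 and 133 CPM with BaP against 135 and 133 CPM with DMSO. Both were lower in both BaP libraries, SRSF3 by less than 1 CPM in replicate 2 of BaP. TRA2A had 16.1 and 15.7 CPM with BaP against 20.2 and 18.2 CPM with DMSO, and TRA2B had 85.9 and 88.6 CPM with BaP against 104 and 101 CPM with DMSO, again with no overlap.

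Among the hnRNP and PTB genes, 4 more of those given by library were lower in both BaP libraries at 24 h without passing. HNRNPK had 269 and 244 CPM with BaP against 293 and 301 CPM with DMSO. HNRNPU had 246 and 214 CPM with BaP against 280.1 and 258 CPM with DMSO. HNRNPL had 223 and 204 CPM with BaP against 238 and 241 CPM with DMSO. PTBP1, of the PTB family, was the fourth, with 457 and 371 CPM with BaP against 465 and 528 CPM with DMSO. HNRNPA0, chosen after its values were seen, had 85.2 and 63.6 CPM with BaP against 97.1 and 88.3 CPM with DMSO (log2 -0.36 ± 0.22, adjusted p = 0.40).

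In the other hnRNP A/B genes and in several more hnRNP genes BaP libraries were not below DMSO libraries at 24 h. HNRNPA3 had 289.6 and 371 CPM with BaP against 267 and 255 CPM with DMSO (log2 0.35 ± 0.14, adjusted p = 0.16). Both BaP libraries were above both DMSO libraries, and the log2 fold change was 0.50 (adjusted p = 0.0093) without the shallow replicate 1 of BaP and 0.14 (0.72) without replicate 2. HNRNPM had 152 and 166 CPM with BaP against 138 and 134 CPM with DMSO (log2 0.23 ± 0.12, adjusted p = 0.31). HNRNPLL, known for exon repression in lymphocytes, had 34.9 and 36.6 CPM with BaP against 31.7 and 30.0 CPM with DMSO (log2 0.22 ± 0.15, adjusted p = 0.45). In these 2 genes as well the BaP libraries were above the DMSO libraries.

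The groups overlapped at 24 h in 8 members given by library. HNRNPA1 had 711 and 846 CPM with BaP against 713 and 756 CPM with DMSO. HNRNPA2B1 had 280.2 and 265 CPM with BaP against 278 and 265 CPM with DMSO. HNRNPC had 327 and 397 CPM with BaP against 330.3 and 326 CPM with DMSO. None of these 3 abundant genes was called. HNRNPDL, called at 12 h, had 121 and 146 CPM with BaP against 139.8 and 147 CPM with DMSO (log2 -0.09 ± 0.12, adjusted p = 0.74), and was not called at 24 h. HNRNPD had 131 and 149 CPM with BaP against 135 and 120.4 CPM with DMSO. HNRNPR had 90.4 and 76.3 CPM with BaP against 92.5 and 89.3 CPM with DMSO. SRSF5 showed replicates far apart, with 85.5 and 55.1 CPM with BaP against 72.9 and 69.2 CPM with DMSO. SRSF11 had 96.0 and 84.2 CPM with BaP against 98.8 and 95.8 CPM with DMSO. Of the 10 members not chosen for values by library, SRSF9 alone had an unadjusted p under 0.05 for BaP against DMSO at either time. SRSF9, an SR protein with a short arginine and serine domain, was at log2 0.30 ± 0.14 at 24 h (adjusted p = 0.24). It moved to 0.47 without replicate 1 of BaP at 24 h and to 0.0035 without replicate 2.

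Whether the effect of BaP differed between times was tested directly, and no member passed, beside 0.461% of all genes called higher and 0.0814% called lower for this difference. HNRNPA3 came closest: its log2 effect was 0.83 ± 0.19 larger at 24 h than at 12 h (adjusted p = 0.074), with values of -0.48 at 12 h and 0.35 at 24 h. The DESeq2 test called it (adjusted p = 0.0075), as did edgeR without a filter (0.0039). HNRNPM followed with 0.59 ± 0.17 (adjusted p = 0.18), and both were called without replicate 1 of BaP at 24 h, at 0.99 (adjusted p = 0.00093) and 0.65 (0.039). Leaving out each library in turn gave 0.62 to 0.99 for HNRNPA3 (adjusted p up to 0.39) and 0.46 to 0.74 for HNRNPM (up to 0.61). SRSF2 showed the opposite direction with -0.45 ± 0.17 (adjusted p = 0.36). At an unadjusted p under 0.05 there were 6 members (17.6%), 4 of them higher at 24 h and 2 lower, beside 9.51% of all genes.

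In vehicle alone, no member passed between 24 h and 12 h of culture in edgeR, beside 2.27% of all genes called higher and 1.01% called lower. HNRNPM had 138 and 134 CPM at 24 h against 199 and 166 CPM at 12 h (log2 -0.42 ± 0.12, adjusted p = 0.062), HNRNPR had 92.5 and 89.3 CPM against 115 and 132 CPM (log2 -0.44 ± 0.13, adjusted p = 0.067), and HNRNPH1, a paralog of HNRNPF, had 177 and 189.6 CPM against 229 and 277 CPM (log2 -0.47 ± 0.14, adjusted p = 0.073). These 3 were lower at 24 h in both libraries. All 3 were called in a fit to the DMSO libraries alone (adjusted p = 0.021, 0.015 and 0.011), without a filter and without either BaP library of 24 h, HNRNPM also without replicate 2 of DMSO at 12 h (0.045), and HNRNPH1 also by DESeq2 (0.046). Before adjustment 6 members had a p under 0.05 (17.6%), 5 lower and 1 higher, beside 16.4% of all genes. The 12 h and 24 h comparisons used different DMSO libraries, and this comparison used both.

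The transcripts of these genes were then compared, because the families are known for making unproductive isoforms. Annotation in GENCODE 29 was found for all but 51 of the 289 transcripts: 125 were protein coding, 28 were NMD transcripts, 43 retained an intron, 41 were processed transcripts and 1 was of another kind. At least 1 NMD or retained intron transcript was quantified for 19 members. Their share of the counts assigned to these and to coding transcripts had a median over 10% in 11 members, while transcripts without annotation stay out of it, and the shares rest on how RSEM divides reads between overlapping isoforms. It was highest in HNRNPL (86.7% to 94.1% over 8 libraries) and HNRNPDL (68.2% to 80.5%), then in SRSF6 (32.9% to 58.8%) and SRSF7 (27.4% to 40.7%). SRSF3 (23.8% to 35.03%) and TRA2B (24.1% to 33.6%) had similar shares. It was lowest in SRSF2 (0.00758% to 0.573%). For HNRNPL 4 transcripts were quantified, 1 coding, 1 NMD and 2 without annotation, so its share is a division between 1 NMD and 1 coding transcript. The 2 without annotation held 12.8% of its counts. In HNRNPL the annotated NMD transcript HNRNPL-202 alone held 78.4% and 69.3% of the gene's counts with BaP at 12 h against 84.0% and 80.3% with DMSO. In HNRNPDL, called lower at 12 h, the NMD transcript HNRNPDL-203 held 62.2% and 54.4% with BaP at 12 h against 52.8% and 52.2% with DMSO. It is 1 of 3 NMD transcripts of the gene. At 12 h the unproductive class of HNRNPDL changed by 0.06 on the log2 scale relative to the gene and was not called (adjusted p = 0.86, gene-level F test of edgeR).

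**Figure D4:**
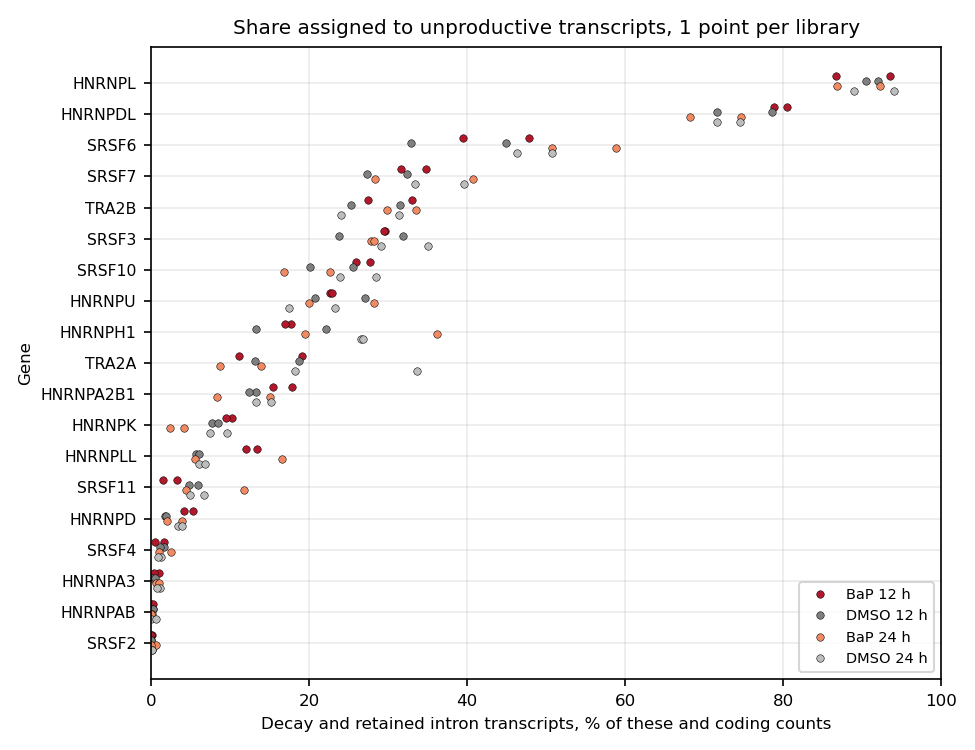
Share of NMD and retained intron transcripts in the counts assigned to these and to coding transcripts (%, horizontal axis), 1 point per library coloured by group, for the 19 members with such a transcript. The shares run from near 0 in SRSF2 to 86.7% to 94.1% in HNRNPL, and in most members the groups overlap, while both BaP 24 h points of HNRNPK lie left of its other 6.

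The balance between unproductive and coding transcripts could be tested in 16 members. None was called at 12 h, where 0 of 3325 genes passed (0%) and 2 of the 16 members had an unadjusted p under 0.05, beside 5.89% of all genes. These were HNRNPD, with 5.24% and 4.13% unproductive with BaP against 1.73% and 1.90% with DMSO, and HNRNPLL, with 12.0% and 13.4% with BaP against 5.65% and 6.09% with DMSO. In both the BaP libraries were above the DMSO libraries (adjusted p = 0.48 and 0.70). SRSF11, the next by p, had 1.55% and 3.30% with BaP against 5.99% and 4.82% with DMSO (adjusted p = 0.84).

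At 24 h HNRNPK was the 1 member called, beside 0.511% of all genes. Its unproductive share fell to 4.17% and 2.33% with BaP, against 9.66% and 7.45% with DMSO, and the unproductive class changed by -1.07 on the log2 scale relative to the gene (adjusted p = 0.040, gene-level F test of edgeR). At 12 h the shares were 10.3% and 9.45% with BaP and 7.76% and 8.40% with DMSO, with a relative log2 change of 0.20 (adjusted p = 0.90). The effect at 24 h minus that at 12 h was -1.27 (adjusted p = 0.42), a difference at which 0.0301% of all genes and no member were called. The other member under an unadjusted p of 0.05 at 24 h, beside 10.5% of all genes, was TRA2A, with 13.9% and 8.74% with BaP against 18.2% and 33.7% with DMSO (adjusted p = 0.31). The whole TRA2A gene had 43 counts in replicate 1 of BaP at 24 h, so its 13.9% rests on few counts. The HNRNPK call was lost with a replicate block (adjusted p = 0.085), with the Simes test (0.12), and without any 1 library (0.082 to 0.40) other than replicate 1 of BaP at 24 h (0.0015). Without replicate 2 of BaP at 24 h the change was -0.69 (adjusted p = 0.24). On simulated data this class test called more unchanged genes than its threshold implies.

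The HNRNPK difference lay mainly in 1 transcript, HNRNPK-207, which is annotated as NMD. It held 1.67% and 0.440% of the gene's posterior mean counts with BaP at 24 h against 6.85% and 5.41% with DMSO, and 7.84% and 7.499% with BaP at 12 h against 5.68% and 6.38% with DMSO. In counts this was 11.9 and 16.1 with BaP at 24 h against 236 and 86.8 with DMSO. RSEM's other estimate, the expected count, was listed at 0 for this transcript in both BaP 24 h libraries, and with it the relative log2 change of the class was -1.79 (adjusted p = 0.0032). Compared with HNRNPK-202, the main coding transcript, HNRNPK-207 skips an exon of 44 bases on the minus strand of chromosome 9 (chr9:83975462-83975505, GRCh38). The length is not a multiple of 3, so that skipping shifts the reading frame, and the annotated reading frame ends after 18 bases of the next exon (chr9:83974517-83974589). Both junctions are shown from the GENCODE 29 transcripts with 30 bases on each side, because the annotated transcripts differ at this exon. Reads across the junctions were not counted. Capitals mark the exon in HNRNPK-202 and the early stop codon in HNRNPK-207.
HNRNPK-202: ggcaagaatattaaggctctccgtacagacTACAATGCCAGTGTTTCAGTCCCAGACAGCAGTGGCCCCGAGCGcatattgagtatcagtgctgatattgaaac
HNRNPK-207: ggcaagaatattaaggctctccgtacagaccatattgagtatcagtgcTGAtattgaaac

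**Figure D5:**
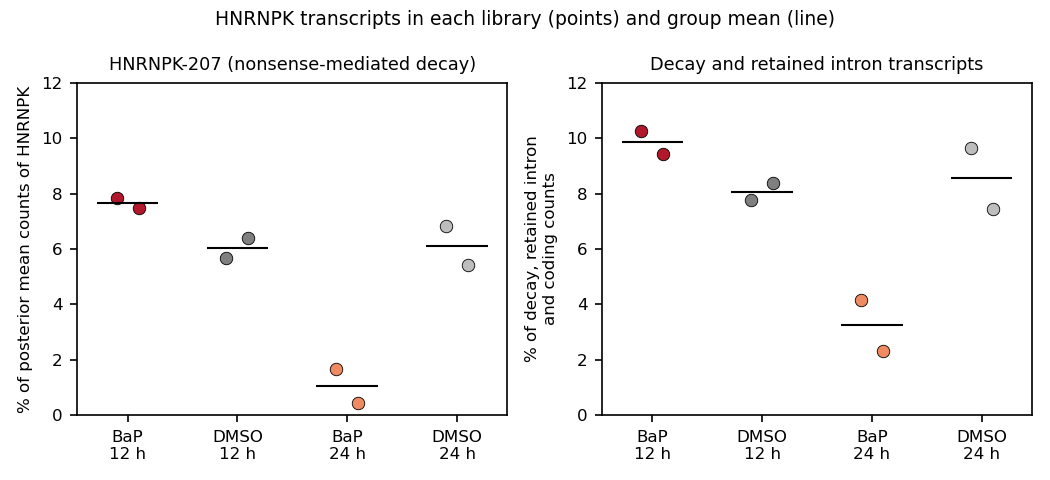
HNRNPK transcripts in each library (points) with the group mean (line). Left, share of HNRNPK-207 in the gene's posterior mean counts (%), right, share of NMD and retained intron transcripts in the counts of these and coding transcripts (%). The BaP 24 h libraries hold 1.67% and 0.440% of HNRNPK-207, below the 6.85% and 5.41% of DMSO at 24 h.

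Transcript usage, the share of each transcript in its gene, could be tested in 28 members, and none was called. At 12 h 0.014% of all 7163 genes passed, and 1 member, HNRNPL, had an unadjusted p under 0.05 (adjusted p = 0.49), beside 8.04% of all genes. HNRNPR and HNRNPDL followed (adjusted p = 0.67 and 0.70). At 24 h 0.265% of all genes passed, and 2 members, HNRNPF and TRA2A, had an unadjusted p under 0.05 (adjusted p = 0.28 and 0.32), beside 13.8% of all genes. In HNRNPF the coding transcript HNRNPF-203 held 15.8% and 15.3% with BaP against 9.38% and 7.96% with DMSO, and in TRA2A the coding transcript TRA2A-201 held 75.0% and 76.8% with BaP against 65.7% and 46.3% with DMSO. The 75.0% comes from a library with 43 counts for TRA2A. SRSF2, the third (adjusted p = 0.36), showed 27.1% and 25.3% of SRSF2-202 with BaP against 38.2% and 35.1% with DMSO. Without replicate 1 of BaP at 24 h SRSF7 and HNRNPU were called, with 571 genes called in all against 19 with it. The Simes test called no member at either time.

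Genes that act on or beside the 2 families were read in the same tests. Of 10 SR protein kinases and nuclear importers none was called at either time by edgeR or DESeq2, with an unadjusted p under 0.05 in 3 at 12 h and 1 at 24 h, beside 19.6% and 20% of all genes. At 12 h 9 of 10 were above 0 with a median of 0.15, beside a median of 0.015 over all genes tested. The list was not tested as a set. CLK3, a kinase that phosphorylates SR proteins, had 51.4 and 47.8 CPM with BaP against 39.6 and 37.3 CPM with DMSO at 12 h (log2 0.36 ± 0.12, adjusted p = 0.090), and was called without replicate 1 or replicate 2 of BaP at 24 h (0.044 and 0.035). Its relative CLK4 (0.67 ± 0.24), the importer TNPO1 (0.31 ± 0.13) and the kinase SRPK1 (0.27 ± 0.13) came next on the log2 scale. At 24 h the median was 0.04, with CLK4 (0.53 ± 0.25), TNPO3 (-0.32 ± 0.16), SRPK1 (0.22 ± 0.13) and CLK1 (0.13 ± 0.18) first by p. Of 34 core spliceosome genes none was called at 12 h by either tool (median 0.05, 3 with an unadjusted p under 0.05, beside 19.6% of all genes), where SF3B4 (0.30 ± 0.12), PRPF8 (-0.31 ± 0.14), SNRPB2 (0.25 ± 0.11) and SNRNP70 (0.23 ± 0.11) had the smallest p. At 24 h (median 0.12) 1 was higher, beside 3.11% of all genes: SNRPD1, a subunit of the Sm ring, with 51.8 and 77.0 CPM with BaP against 43.0 and 45.2 CPM with DMSO (log2 0.60 ± 0.15, adjusted p = 0.029). This call was lost without replicate 2 of BaP (log2 0.23, adjusted p = 0.61), without either DMSO library of 24 h (0.27 and 0.16), without either BaP library of 12 h (0.054 and 0.055), with the 24 h libraries alone (0.10) and by DESeq2 (0.055). SNRPA1 (0.55 ± 0.17), SF1 (-0.36 ± 0.12) and SNRPE (0.48 ± 0.19) did not pass. All 3 were called without the shallow replicate 1 of BaP at 24 h (0.78, -0.40 and 0.74), and without replicate 2 SNRPA1 was at 0.08 (adjusted p = 0.92) and SNRPE at -0.08 (0.92). SNRPA1 was also called without a filter (0.014).

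Of 38 other splicing regulators tested, 2 fell at 12 h (median -0.04), beside 4.84% of all genes, and none was called at 24 h by either tool (median -0.12). At 24 h 7 had an unadjusted p under 0.05, beside 20% of all genes. MBNL3, a muscleblind protein, had 196 and 185 CPM with BaP against 274 and 306 CPM with DMSO at 12 h (log2 -0.61 ± 0.13, adjusted p = 0.0054). RBFOX2, a regulator of alternative exons, had 37.4 and 35.2 CPM with BaP against 52.6 and 52.7 CPM with DMSO (log2 -0.54 ± 0.12, adjusted p = 0.0081). Both calls were lost without either BaP library of 12 h (adjusted p = 0.068 and 0.10 for MBNL3, 0.071 and 0.12 for RBFOX2). TIAL1 (0.32 ± 0.11) and ACIN1 (0.33 ± 0.12) came next at 12 h, and MATR3 (-0.38 ± 0.13), KHSRP (-0.38 ± 0.14), MBNL3 (-0.32 ± 0.13) and ESRP2 (0.28 ± 0.12) had the smallest p at 24 h. Of these, MATR3 (-0.47), KHSRP (-0.61) and MBNL3 (-0.43) were called without replicate 1 of BaP at 24 h, and without replicate 2 they were at -0.29, -0.13 and -0.20, none called. MATR3 was also called without a filter (adjusted p = 0.049), and ACIN1 was called higher at 12 h without either BaP library of 24 h (adjusted p = 0.047 and 0.031) and by DESeq2 (0.0496). Of 12 genes of NMD and the exon junction complex 1 fell at 12 h (median 0.09), and none was called at 24 h by either tool (median 0.04), with 2 at an unadjusted p under 0.05, against the same shares of all genes. SMG6, the endonuclease of NMD, had 37.5 and 31.6 CPM with BaP against 51.4 and 48.7 CPM with DMSO at 12 h (log2 -0.54 ± 0.14, adjusted p = 0.020), with CASC3 (0.22 ± 0.11), SMG1 (0.22 ± 0.12) and UPF3A (0.20 ± 0.13) after it. The SMG6 call was lost without either BaP library of 12 h (adjusted p = 0.060 and 0.27) and without replicate 1 of DMSO at 12 h (0.11). UPF2, which links UPF1 to the exon junction, came closest at 24 h (log2 -0.62 ± 0.18, adjusted p = 0.055), before UPF1 (-0.35 ± 0.13), RBM8A (0.36 ± 0.18) and UPF3A (0.18 ± 0.14). UPF2 was called with a replicate block (adjusted p = 0.049), with DESeq2 size factors (0.049), without a filter (0.041) and without replicate 1 of BaP at 24 h (0.047), and not by the Wald test of DESeq2. UPF1 (-0.51) and RBM8A (0.61) were called without replicate 1 of BaP at 24 h, and without replicate 2 they were at -0.17 (0.70) and -0.06 (0.93).

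Gene length moved with the response to BaP, so the members were set beside genes of their own length. The 6888 tested genes that span up to 30 kb had a median log2 fold change of 0.07 at 12 h and 0.08 at 24 h, and the 2301 genes over 100 kb had -0.17 and -0.12. The members were short: their spans ranged from 3.26 kb (SRSF2) to 116 kb (PTBP3), with a median of 16.04 kb, against 29.2 kb over all tested genes with a known span. The 25 members up to 30 kb had a median of -0.16 at 12 h and -0.20 at 24 h. The 8 members over 30 kb and up to 100 kb had -0.21 and -0.10, beside 0.01 and -0.03 over the 4336 tested genes of that span. MBNL3, RBFOX2 and SMG6, called lower at 12 h, span 121 kb, 290 kb and 244 kb. The part of gene length in any of these changes was not tested.

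Reads that could belong to another gene limit some of these values. Pseudogenes named after a member were listed for 16 members, 103 in all and 62 of them for HNRNPA1, and the counts assigned to them were below 5% of the member's counts in each case (0.944% for HNRNPA1). SRSF2, HNRNPC and HNRNPU each had a second identifier under the same symbol, and the identifier of the symbol table was used. The sources used here name no strand setting, and 12 members share exonic bases with a gene on the other strand in GENCODE 29, so reads from both cannot be told apart. The largest share was 46.2% of the exonic bases of SRSF9, with GATC, which has no identifier in the data. SRSF2 shares 36.7% of its exonic bases with MFSD11, whose log2 fold change at 24 h was 0.19 ± 0.20 (adjusted p = 0.66). HNRNPU shares 15.6% with COX20 (0.25 ± 0.18 at 24 h, adjusted p = 0.45). HNRNPUL1 shares 3.29% with TGFB1, which was called higher at 24 h (0.48 ± 0.13, adjusted p = 0.041, edgeR). HNRNPA3 shares 1.66% with an antisense gene that had 1 count over all libraries together, and HNRNPDL shares none.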

How the data were processed

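Poly-A RNA of 8 HepG2 libraries was quantified by the authors. The deposited values, per the file names, are RSEM results on Ensembl release 58. Their columns carry no headers and were read as estimated (expected) counts, posterior mean counts, and fractions of transcript molecules. Bowtie 0.12.7, RSEM 1.1.7 and edgeR are named in the submitters' processing notes, and no source used here names the genome build. Deposited estimated counts were rounded, and the deposited fractions were multiplied to TPM. In R 4.3.3, edgeR 4.0.16 was used (filterByExpr, minimum count 10 and total 15, trimmed mean of M-values, robust quasi-likelihood F test, 1 mean per group over all 8 libraries). SE is the size of the log2 fold change divided by the root of F. All tests are two-sided. Benjamini-Hochberg adjustment ran over all genes of a comparison (threshold 0.05).

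Usage was tested with edgeR's diffSpliceDGE on posterior mean counts of transcripts with at least 10% of their gene. Coding and unproductive (NMD plus retained intron) sums were tested likewise. Biotypes, by transcript ID from GENCODE 29, were found for 80.1% of transcripts (87.4% of counts). On simulated data the tests called more unchanged genes than the threshold implies, most so for the class test. The test of the class difference between times was added after its 24 h result was seen.

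The members and gene lists were chosen with earlier results of these data known. Values by library are given for members called, for the 5 with the smallest p at each time, for 12 well-known members, and for usage or class calls (otherwise the 3 smallest p); companion lists name up to 4 genes by p. HNRNPH1, HNRNPA0, HNRNPAB, SRSF7 and SRSF9 were named after their values were seen. Alternatives for companion genes were added then too. No replicate term was fitted, and the labels name no batch. Alternatives were DESeq2 1.42.0 (size factors, Wald test), no filter, a replicate block, the libraries of a comparison alone, leaving out each library, and, for transcripts, expected counts, no minimum share, the Simes test and NMD alone. The smallest member count in any library was 43; replicate 1 of BaP at 24 h had 2592272 counts, where 3 counts are 1.16 CPM.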

Additional observations from a re-analysis of the deposited data

How the results depend on the processing

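With 2 libraries per group and members that differed by less than a factor of 1.5, calls were near the threshold, and depth was lowest in replicate 1 of BaP at 24 h. Leaving out each library in turn gave 0 to 4 lower members at 12 h and 0 higher at 12 h, 0 to 2 lower and 0 to 2 higher at 24 h, 0 to 2 higher for the difference between times and 0 to 3 lower for DMSO at 24 h against 12 h. Calls over all genes moved in the same fits, with 250 to 969 lower at 12 h, 74 to 726 lower and 95 to 1230 higher at 24 h, 24 to 249 higher for the difference and 6 to 423 lower for DMSO over time. Leaving out a library also gave 0 to 2 members for usage at 24 h and 0 to 1 for the unproductive class at 24 h. Where a group is left with 1 library, that library is assumed to vary like the others, and more genes are tested.

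With only the libraries of a comparison there were 5 lower members at 12 h, 0 at 24 h and 3 for DMSO over time, where lower calls over all genes were 1000 of 14316 (713 of 14746 with all libraries), 144 of 13519 (324) and 342 of 14185 (149). Without a filter there were 2 lower at 24 h, 1 higher for the difference and 3 lower for DMSO over time, and with the Wald test of DESeq2 2, 1 and 1. The cause was not tested. The replicate block gave 2 lower members at 12 h and 1 at 24 h, as did the fit without it. It gave 0 for the class at 24 h and added a call for UPF2 at 24 h. The block was 1 term for both times, so it could not fit a replicate difference present at 12 h only. Same-numbered libraries did not deviate together in every pair of groups, and the numbers were not taken as pairs: the correlation of replicate differences over 7299 genes was 0.42 between BaP and DMSO at 12 h, 0.064 at 24 h and -0.24 between BaP at 12 h and at 24 h. No called value changed sign. Of 1581 single-gene values recomputed, 1490 kept their side of the threshold, 40 lost a call and 51 gained one.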
